A study of Homo sapiens with 36 samples.

Results

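The enzymes and helpers of hepatic glucose output were followed through 9 genes, out of 57771 genes in the count table. They were chosen by name with earlier results of these data known, so counts among them are descriptive. The 9 genes were G6PC1 (ENSG00000131482), SLC37A4 (ENSG00000137700), G6PC3 (ENSG00000141349), PCK1 (ENSG00000124253), PCK2 (ENSG00000100889), PC (ENSG00000173599), FBP1 (ENSG00000165140), PPARGC1A (ENSG00000109819) and TAT (ENSG00000198650). All 9 were found by their Ensembl identifier and all 9 passed the filter on low counts. The cells, called HepG2-IGF1R-KO, are a human hepatoma line edited in the gene of the IGF-1 receptor, and RNA-seq gave 36 libraries, 9 in each of 4 groups. Cells were in normal medium (DMEM with fetal bovine serum) or in insulin-resistant medium, and the titles of all 4 groups give 72 h. In each medium they were left without added insulin or had 18 h with human insulin at 3 nM. The insulin-resistant medium contained 20 mM glucose, 0.5 mM fatty acids (palmitic, linoleic and oleic acid) and 1 nM insulin. All groups carry the IGF1R edit and no unedited control was analysed here. Whether the 1 nM insulin was removed from untreated cells is not stated, so in that medium the insulin comparison may be of 3 nM against 1 nM. The labels do not say whether the edited line is 1 clone.

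As background, a liver cell builds glucose from lactate, amino acids and glycerol by running most of glycolysis backwards and going around its irreversible steps. Pyruvate carboxylase (PC) makes oxaloacetate, the cytosolic (PCK1) and mitochondrial (PCK2) phosphoenolpyruvate carboxykinases turn it into phosphoenolpyruvate, and fructose-1,6-bisphosphatase (FBP1) removes a phosphate further on. In the endoplasmic reticulum SLC37A4 brings in glucose-6-phosphate and the catalytic subunit G6PC1 frees glucose, while G6PC3 is a widely expressed relative. Insulin is known to lower G6PC1 and PCK1 transcription in hepatocytes, in large part through AKT and FOXO1. PPARGC1A is a coactivator of this programme, and TAT, tyrosine aminotransferase, feeds amino acid carbon towards it and is a classical glucocorticoid-induced liver gene.

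The upstream sequences of G6PC1 and G6PC3 are printed because these relatives showed unlike patterns across the 4 groups. They are the 250 bases before the RefSeq start on the plus strand of GRCh38.p14, at chr17:42900549-42900798 for G6PC1 and chr17:44070423-44070672 for the first listed start of G6PC3. Capitals mark TGTTTTT, a form of the forkhead-like insulin response core, searched on both strands.
G6PC1: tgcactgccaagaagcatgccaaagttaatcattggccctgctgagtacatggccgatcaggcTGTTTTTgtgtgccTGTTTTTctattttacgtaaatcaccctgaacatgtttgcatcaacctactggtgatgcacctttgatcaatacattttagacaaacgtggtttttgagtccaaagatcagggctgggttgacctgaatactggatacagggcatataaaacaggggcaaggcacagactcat
G6PC3: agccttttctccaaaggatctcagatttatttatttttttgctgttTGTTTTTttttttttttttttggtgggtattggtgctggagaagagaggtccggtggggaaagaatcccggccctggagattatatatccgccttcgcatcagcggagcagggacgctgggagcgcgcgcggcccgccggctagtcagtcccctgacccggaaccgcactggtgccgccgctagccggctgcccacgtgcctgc
In G6PC1 the match begins 187 and 173 bases before the start, with TGTTTGC 140 bases and TATAAAA 29 bases before it. The G6PC3 match, 204 bases before the start, lies in a run of T. RefSeq upstream sequences were matched for 7 of the 9 genes, and TGTTTTT was also found before the second listed starts of PC and PPARGC1A. The motif was in 6.29% of 35116 upstream sequences of the same length, TGTTTGC in 3.23% and TATAAAA in 4.18%. TGTTTAC (2.98%) and TGACGTCA (1.65%), each searched on both strands, were found in none of the 7 genes. A match describes letters in this window and shows no binding.

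Some libraries stood apart. COL1A1 encodes a collagen chain made by fibroblasts. In 30 libraries it reached 8070 to 31900 CPM (counts scaled to the library total), and in 6 only 0.784 to 1.7 CPM. The 6 comprise 1 triplet of consecutive replicates from each of 2 groups, numbers 4 to 6 with insulin in normal medium and numbers 1 to 3 without it in insulin-resistant medium. The 16 stromal markers together made up 22600 to 76500 CPM of the 30 libraries but 99.1 to 117 CPM of the 6, where DCN, POSTN, FAP and TWIST1 had no count at all. All 20 hepatocyte markers, ALB and APOB among them, were above 0 in every library. Set against the average library, their mean level was 1.64 to 1.87 in the 6. In the 30 it was 0.964 to 1.71 (untreated, normal medium), 0.647 to 1.2 (insulin, normal), 0.601 to 1.19 (untreated, insulin-resistant) and 0.64 to 0.743 (insulin, insulin-resistant). The endothelial list summed to 0.915 to 4.32 CPM and the leukocyte list to at most 46.1 CPM in any library. The 4 cholangiocyte markers summed to 728 to 1710 CPM, but went unlike ways. KRT7 had a median of 238 CPM in the 30 libraries and 0.145 CPM in the 6. KRT19 (515 and 927 CPM), SOX9 (134 and 290 CPM) and EPCAM (93.9 and 183 CPM) were higher in the 6. Library totals were 26.6M to 117M counts. By labelled batch date, untreated and insulin in normal and then in insulin-resistant medium, 22 April held 4, 5, 4 and 3 libraries. In the same order 11 April held 2, 2, 2 and 6, and 24 May held 3, 2, 3 and none. IGF1R was at 65.3 to 147 CPM in the 36 libraries, and a gene-level count does not test the edit. Triplets, meaning 3 replicates in a row within a group (numbers 1 to 3, 4 to 6, 7 to 9), deviated together (median correlation of deviations 0.639 over 36 pairs of libraries), so p-values over single libraries may be too small. Results are given with all 36 libraries, and the called ones among the 9 genes also without the 6.

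**Figure D1:**
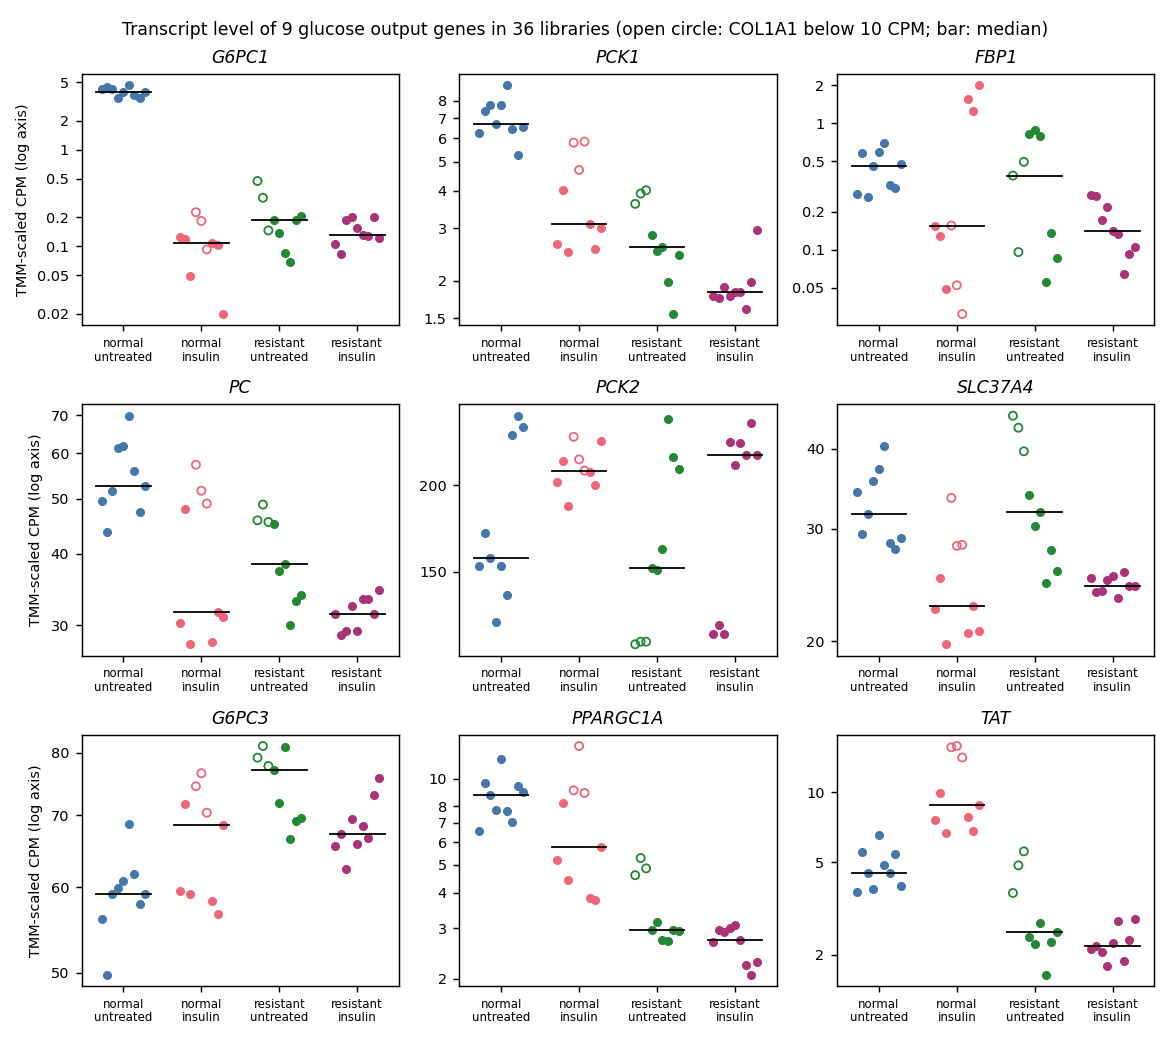
Each panel plots 1 gene as TMM-scaled CPM (log axis) in the 36 libraries by group, with open circles for the 6 libraries with COL1A1 below 10 CPM and bars for medians. G6PC1 is at 3.39 to 4.62 CPM in untreated cells in normal medium and at or under 0.474 CPM in every other library.

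In untreated cells in normal medium the 9 genes spanned a wide range of abundance. Levels between genes are compared per kilobase of annotated exon, as TMM-scaled CPM per kb (mean of 9 libraries), with exon lengths from a later annotation than the counts. PCK2 was highest at 56.6 and G6PC3 followed at 38.6. Their libraries overlapped (39.7 to 78.8 and 32.5 to 44.8). SLC37A4 and PC came next at 11.8 and 11.4, also overlapping. The next 4 were far lower, with the enzymes PCK1 at 1.61, G6PC1 at 1.29 and TAT at 1.19 and the coactivator PPARGC1A at 0.96, and each overlapped its neighbour in this order. FBP1 was lowest, at 0.253 CPM per kb (0.15 to 0.399), and its 16 to 82 counts per library make it the least precise of the 9 in this group. The mitochondrial PCK2 therefore exceeded the cytosolic PCK1 on this scale in every library of the group. These levels are of whole libraries, in which the stromal list summed to 22600 to 67200 CPM. The order within the hepatoma cells alone is therefore not known.

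In normal medium insulin lowered 4 of the 9 genes and raised 2, at an edgeR adjusted p under 0.05, beside 10.2% of the 17983 genes tested that fell and 24.9% that rose. G6PC1, PCK1, PC and SLC37A4 fell, TAT and G6PC3 rose, and PPARGC1A, PCK2 and FBP1 did not pass. The median log2 fold change of the 9 was -0.32, against 0.03 over all genes. Without the 6 libraries 5 fell and 1 rose, beside 33.4% of all genes called in either direction, with PPARGC1A joining the genes that fell and G6PC3 no longer called. All levels below are TMM-scaled CPM. They are those of whole libraries, so fewer hepatoma cells and less RNA per cell cannot be told apart.

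G6PC1 had a lowest, median and highest level of 3.39, 3.95 and 4.62 CPM in untreated libraries and of 0.0199, 0.109 and 0.225 CPM with insulin. The groups did not overlap. The means were 3.99 ± 0.431 and 0.114 ± 0.0621 CPM (SD, n = 9), which is 198 to 546 counts per library against 1 to 16. The fitted fall was 34.1-fold, a log2 fold change of -5.09 ± 0.32 (SE; edgeR adjusted p = 3.3e-13), and 45.9-fold without the 6 libraries. Within the batches of 22 April, 11 April and 24 May the log2 fold change was -5.22, -6.37 and -4.59, and each passed. In the 11 April batch the stimulated libraries were only replicates 6 and 9, with 3 and 1 counts. In that of 24 May they were only replicates 2 and 4. Replicates 4 and 6 are among the 6 libraries. Of the 3 insulin-stimulated replicates with almost no stromal transcripts, the G6PC1 level was 0.0928 to 0.225 CPM, and in the other 6 it was at or under 0.124 CPM. The glucose-6-phosphate transporter SLC37A4 moved less, from 27.9, 31.6 and 40.4 CPM (lowest, median, highest) to 19.8, 22.7 and 33.5 CPM. Its groups overlapped, and the log2 fold change was -0.39 ± 0.10 (edgeR adjusted p = 0.00345). Leaving out the 6 gave -0.64 and separate ranges. G6PC3, the ubiquitous relative, was at 49.8 to 68.7 CPM untreated and 56.7 to 76.6 CPM with insulin. Its small rise of 0.17 ± 0.06 (edgeR adjusted p = 0.0155) was 0.10 (adjusted p = 0.204) when TMM factors were averaged over all reference libraries. The call was also lost with DESeq2 (adjusted p = 0.183) and in 28 of 36 fits that each left out 1 library (0.02 to 0.19). With the 6 left out it was -0.01 (adjusted p = 0.882).

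PCK1, the cytosolic carboxykinase, had 5.28, 6.72 and 9.01 CPM (lowest, median, highest) untreated and 2.49, 3.1 and 5.85 CPM with insulin. The overlap came from the triplet with COL1A1 below 10 CPM, at 4.7 to 5.85 CPM, since the other 6 stimulated libraries were at or under 4.03 CPM. The log2 fold change was -0.87 ± 0.17 (edgeR adjusted p = 0.000123), a fall of 1.83-fold, and -1.28 without the 6 libraries. Within the 3 batches it was -1.17, -0.72 and -0.70, and it passed in the first and the last. PC went from 43.7, 52.6 and 69.8 CPM to 27.8, 31.6 and 57.3 CPM. The fitted log2 change was -0.45 ± 0.11 (edgeR adjusted p = 0.00214), and -0.80 without the 6. PCK2 was at 127 to 252 CPM untreated and 187 to 235 CPM with insulin, so the stimulated range lay inside the untreated one (0.23; adjusted p = 0.309). FBP1 was at 0.26 to 0.694 CPM untreated and split by triplet with insulin. Replicates 7 to 9 were at 1.25 to 1.99 CPM and the other 6 at or under 0.155 CPM, so no single fold describes that group (0.67 ± 0.63; edgeR adjusted p = 0.459). Within the 24 May batch alone, where the 2 stimulated libraries had 14 and 11 counts, FBP1 was at -2.08.

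PPARGC1A had 6.58, 8.77 and 11.7 CPM untreated and 3.76, 5.78 and 13.0 CPM with insulin. Its log2 fold change of -0.32 ± 0.20 did not pass (edgeR adjusted p = 0.228). In the 30 libraries it was -0.81 (adjusted p = 2.78e-05), and the 3 libraries left out of the stimulated group were at 8.91 to 13.0 CPM. TAT moved the other way. It was at 3.71, 4.5 and 6.51 CPM untreated and at 6.7, 8.78 and 15.8 CPM with insulin, with no overlap between the groups. The log2 fold change was 1.12 ± 0.20 (edgeR adjusted p = 3.86e-05) and 0.68 (adjusted p = 3.33e-05) without the 6 libraries, of which the 3 stimulated ones held the highest TAT levels (14.1 to 15.8 CPM). Ranges failed to overlap for 2 of the 9 genes, G6PC1 and TAT, beside 8.45% of all genes.

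**Figure D2:**
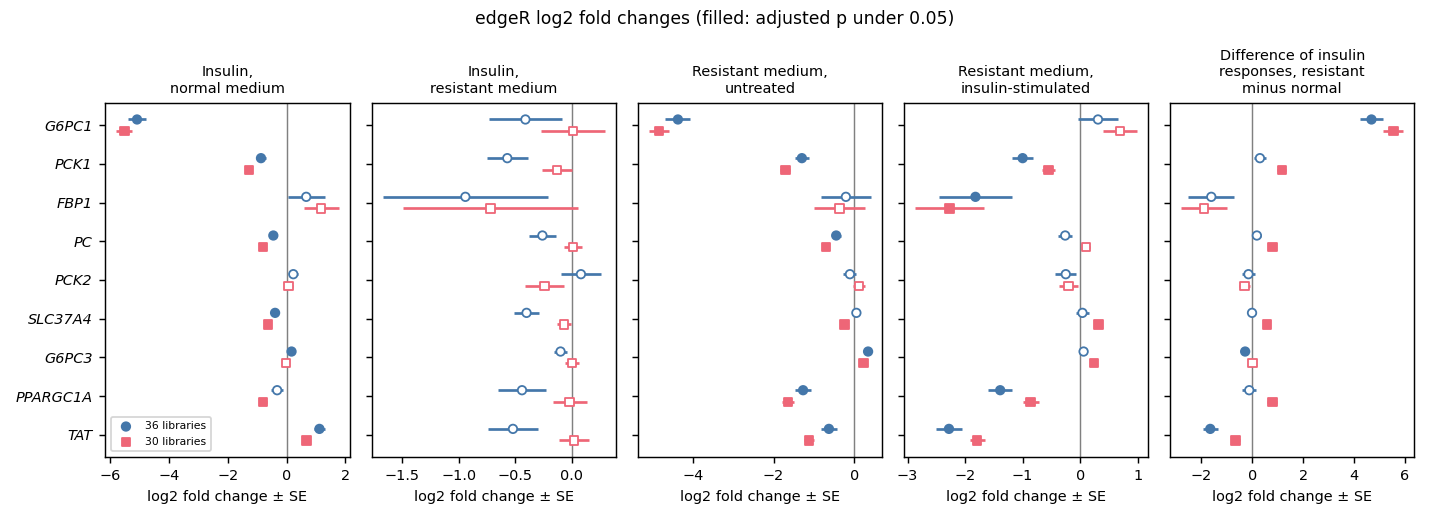
Log2 fold changes with standard errors for the 9 genes in the 4 comparisons and in the difference of insulin responses, with all 36 libraries (circles) and with the 30 with COL1A1 at 10 CPM or more (squares); filled symbols passed. G6PC1 lies furthest from 0 in the first panel (insulin in normal medium), at -5.09 with 36 and -5.52 with 30 libraries. No symbol is filled for insulin in insulin-resistant medium.

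In insulin-resistant medium none of the 9 genes was called after insulin, beside 0.0% of all genes by edgeR's quasi-likelihood test, with or without the 6 libraries. The ranges overlapped for all 9, beside 0.217% of all genes whose ranges did not. At an unadjusted p under 0.05 there were 4490 genes, 5 of the 9 among them (964 genes without the 6 libraries), and DESeq2 called 137 genes but 0 of the 9. G6PC1 was at 0.0693, 0.185 and 0.474 CPM (lowest, median, highest) without added insulin and at 0.0837, 0.132 and 0.202 CPM with it. These ranges overlapped, with 5 to 17 and 6 to 13 counts per library, and the log2 fold change was -0.41 ± 0.32 (edgeR adjusted p = 0.424). Both highest untreated values came from the 6 libraries, and without these the difference was 0.01. PCK1 was at 1.55, 2.59 and 4.02 CPM against 1.61, 1.83 and 2.95 CPM (-0.57 ± 0.18; edgeR adjusted p = 0.0995). Without the 6 it was -0.13. It passed when replicate 7 or replicate 9 of the untreated group was left out. SLC37A4 had the same adjusted p at -0.40 ± 0.11, passed without the same libraries, and was at -0.07 without the 6. In a fit of only these 2 groups PCK1, SLC37A4, PC, PPARGC1A and TAT all passed, at -0.35 to -0.67. With the libraries scaled to the hepatocyte genes these 5 were between -0.08 and 0.18. TAT was at -0.52, PPARGC1A at -0.44, PC at -0.26, G6PC3 at -0.10 and PCK2 at 0.08 with all libraries, and without the 6 they were at 0.02, -0.02, 0.01, 0.0 and -0.24. FBP1 was at -0.94 ± 0.73 (edgeR adjusted p = 0.419), and at -0.72 without the 6. The hepatocyte level was 1.64 to 1.73 in the 3 untreated libraries left out and 0.64 to 0.743 in every stimulated library. Its part in these differences was not tested.

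The insulin-resistant medium by itself lowered 5 of the 9 genes in untreated cells and raised 1, beside 8.62% of all genes that fell and 13.3% that rose. G6PC1, PCK1, PPARGC1A, PC and TAT fell and G6PC3 rose. This comparison shares its normal-medium libraries with the insulin comparison above, so the values are not independent of it. With the 6 left out, 6 genes fell, SLC37A4 being added, and 1 rose, beside 26.7% of all genes called in either direction. G6PC1 fell from 3.95 to 0.185 CPM in the median, 20.7-fold in the fit (-4.37 ± 0.31; edgeR adjusted p = 8.33e-13), with no overlap between 9 and 9 libraries. In the 30 libraries the fall was 28.7-fold. Within the batches of 22 April, 11 April and 24 May it was -4.21, -4.02 and -4.89 on the log2 scale, and each passed.

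PCK1 fell from 7.01 ± 1.09 to 2.83 ± 0.858 CPM (SD, n = 9), with a highest level of 4.02 CPM in insulin-resistant medium and a lowest of 5.28 CPM in normal medium. The log2 fold change was -1.30 ± 0.17 (edgeR adjusted p = 6.24e-07), and -1.71 without the 6 libraries. The 3 libraries with almost no stromal transcripts held its highest values in that group, at 3.62 to 4.02 CPM. PPARGC1A fell from 8.64 ± 1.57 to 3.58 ± 1.03 CPM, also without overlap (-1.27 ± 0.20; edgeR adjusted p = 9.8e-06), and was at -1.64 without the 6. Ranges thus separated for 3 of the 9 genes, beside 5.47% of all genes. PC fell less, from a median of 52.6 to 38.4 CPM (-0.45; adjusted p = 0.00387), and was at -0.70 without the 6. TAT fell from a median of 4.5 to 2.49 CPM (-0.63 ± 0.20; edgeR adjusted p = 0.0231). That TAT call was lost on leaving out replicate 5 in normal medium or replicate 4 or 5 in insulin-resistant medium, and in a fit of these 2 groups alone (adjusted p = 0.0517). Its value was -1.13 without the 6 libraries, whose 3 untreated members were at 3.68 to 5.56 CPM against 1.64 to 2.74 CPM in the other 6. G6PC3 rose from 59.2 ± 4.98 to 74.8 ± 5.61 CPM (0.34 ± 0.06; edgeR adjusted p = 2.54e-05), and was at 0.23 without the 6. SLC37A4 was at a median of 31.6 and 31.8 CPM (0.05; adjusted p = 0.793), and at -0.25 (adjusted p = 0.000773) without the 6 libraries, of which those of this group were at 39.6 to 45.0 CPM. Within the batches, taken in the same order, PCK1 was at -1.22, -1.15 and -1.57 and PPARGC1A at -1.09, -1.21 and -1.63. PCK1 passed in the batches of 22 April and 24 May and PPARGC1A in that of 24 May.

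Among insulin-stimulated cells, those in insulin-resistant medium had less TAT, PPARGC1A, PCK1 and FBP1, 4 of the 9 genes, and none was higher, beside 26.3% of all genes that were lower and 12.0% that were higher. With the libraries scaled to the hepatocyte genes 3 were lower and 4 higher, beside 616 lower and 6736 higher of 17983 genes. Those 4 were G6PC1 (0.91), SLC37A4 (0.63), G6PC3 (0.61) and PC (0.35). TAT was at 8.78 CPM in the median (6.7 to 15.8) in normal medium and at 2.18 CPM (1.78 to 2.85) in insulin-resistant medium, without overlap. The fitted log2 difference was -2.28 ± 0.22 (edgeR adjusted p = 1.44e-09), -1.79 without the 6 libraries and -1.63 with that scaling. PPARGC1A, at 6.91 ± 3.1 and 2.67 ± 0.378 CPM (SD, n = 9), also separated (-1.39 ± 0.21; edgeR adjusted p = 2.59e-06). Its value was -0.86 without the 6 libraries and -0.72 with hepatocyte scaling, and it passed in both. These were 2 of the 9 genes, beside 12.2% of all genes. Within the 22 April and 11 April batches TAT was at -2.06 and -2.21 and passed in both, and PPARGC1A was at -0.99 and -1.45 and passed in the second. The 24 May batch held no library of insulin-stimulated cells in insulin-resistant medium.

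PCK1 was at 3.8 ± 1.36 and 1.94 ± 0.395 CPM (-1.0 ± 0.18; edgeR adjusted p = 4.45e-05). It still passed, at -0.55 without the 6 libraries and at -0.37 with hepatocyte scaling. FBP1, at -1.82 ± 0.64 (edgeR adjusted p = 0.0238), rested on replicates 7 to 9 in normal medium. Its call was lost on leaving out replicate 7 or 9 of that group or replicate 7, 8 or 9 in insulin-resistant medium, and its values over all such fits ranged from -1.97 to -0.91. It was also lost with hepatocyte scaling (-1.48; adjusted p = 0.0782) and without the low-count filter (-1.72; adjusted p = 0.0587), and it passed at -2.27 (adjusted p = 0.00407) without the 6 libraries. G6PC1 was low in both groups, at medians of 0.109 and 0.132 CPM (0.31; adjusted p = 0.507). It had 1 to 16 and 6 to 13 counts per library there, and was at 0.69 (adjusted p = 0.0747) without the 6 libraries. PC (-0.26; adjusted p = 0.0862), SLC37A4 (0.04) and G6PC3 (0.06) did not pass. In the 30 libraries SLC37A4 was at 0.32 and G6PC3 at 0.24, and both passed, which made 2 higher and 4 lower beside 17.8% and 18.2% of all genes. The stromal list summed to 30600 to 71400 CPM in every stimulated library in insulin-resistant medium, and to 99.1 to 111 CPM in the triplet left out of normal medium. Its part in these differences was not tested.

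**Figure D3:**
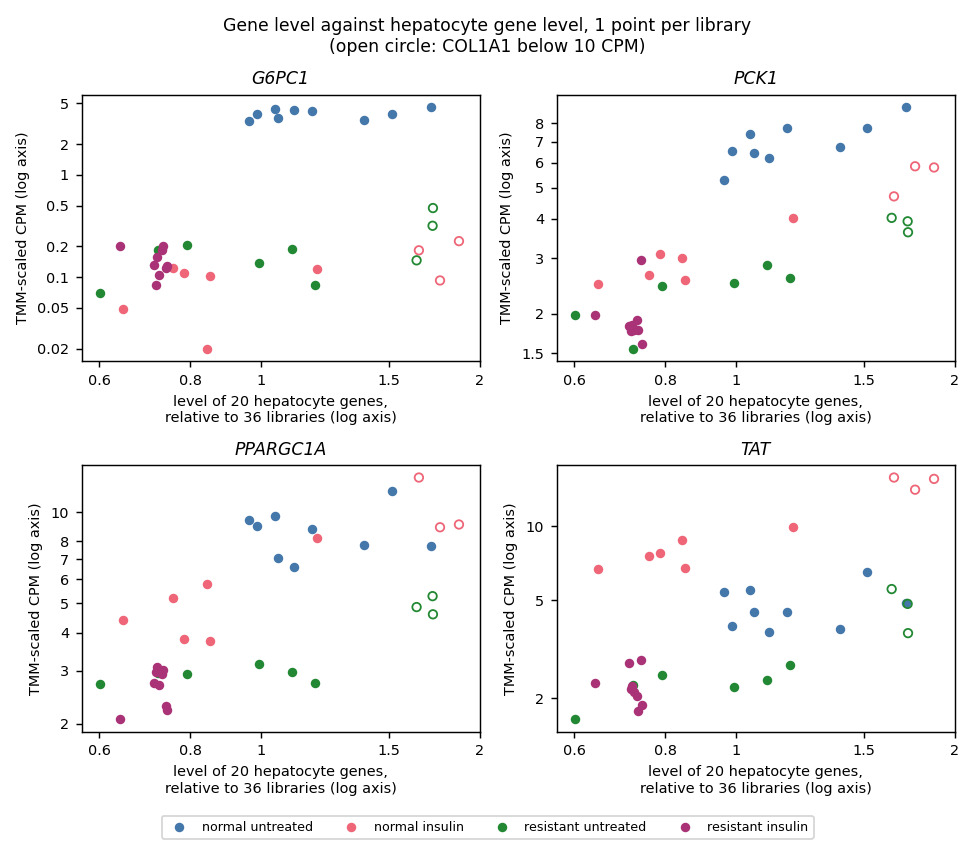
TMM-scaled CPM of G6PC1, PCK1, PPARGC1A and TAT (log axis) against the mean level of 20 hepatocyte genes relative to the 36 libraries (log axis), 1 point per library, coloured by group. The 6 libraries with COL1A1 below 10 CPM (open circles) lie at 1.64 to 1.87 on the horizontal axis, and the 9 libraries with insulin in insulin-resistant medium lie between 0.64 and 0.743.

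The insulin responses in both media were then compared directly, as the log2 fold change in insulin-resistant minus that in normal medium. With all libraries 3 of the 9 genes passed, 1 with a positive and 2 with a negative difference, beside 6.22% and 23.5% of all genes. G6PC1 differed by 4.68 ± 0.44 (edgeR adjusted p = 1.01e-08). It was already near its stimulated level in insulin-resistant medium without added insulin (0.201 ± 0.126 CPM against 0.114 ± 0.0621 CPM with insulin in normal medium). TAT differed by -1.65 ± 0.29 (edgeR adjusted p = 6.06e-05), with values of 1.12 in normal and -0.52 in insulin-resistant medium. The TAT difference was -0.66 without the 6 libraries (edgeR adjusted p = 0.00684), and with hepatocyte scaling it was -1.11. That of G6PC1 was 5.54 without the 6. G6PC3 differed by -0.28 ± 0.08 (edgeR adjusted p = 0.0103), by -0.20 (adjusted p = 0.0811) with averaged TMM factors and by 0.01 without the 6 libraries. It was also not called with DESeq2 (adjusted p = 0.0769) or in 28 of 36 fits that each left out 1 library (-0.30 to -0.14). Without the 6, PCK1 (1.16), PC (0.80), PPARGC1A (0.79) and SLC37A4 (0.57) passed as well, which made 5 positive and 1 negative beside 21.8% of all genes called in either direction. With all libraries these 4 were at 0.30, 0.18, -0.12 and -0.01 and did not pass. Within the 22 April and 11 April batches G6PC1 differed by 4.50 and 5.65 and passed in the second (edgeR adjusted p = 0.0585 and 0.00805). TAT was at -1.59 and -1.82 there and passed in neither.

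Within groups, the 9 genes varied by triplet in unlike ways. PCK2 in untreated cells in normal medium was at 236 to 252 CPM in replicates 7 to 9 and at 127 to 171 CPM in the other 6. In insulin-resistant medium it was at 118 to 119 CPM in replicates 1 to 3 untreated, and at 122 to 126 CPM in replicates 1 to 3 with insulin against 214 to 246 CPM in the rest. Of these low triplets, the stromal list summed to 30600 to 38600 CPM in the stimulated one, against 59000 to 71400 CPM in its group's rest. It summed to 109 to 117 CPM in the untreated one. For untreated cells in normal medium it was 63000 to 67200 CPM (replicates 7 to 9) and 22600 to 46500 CPM (the other 6). PCK2 with insulin in normal medium was at 210 to 235 CPM where this list summed to 99.1 to 111 CPM. The other 6 of that group were at 187 to 232 CPM. The part of stroma in PCK2 levels was not tested. FBP1 in untreated cells in insulin-resistant medium was at 0.79 to 0.886 CPM in replicates 4 to 6 and at or under 0.495 CPM in the rest. SLC37A4 with insulin in insulin-resistant medium was the tightest, at 23.4 to 25.7 CPM in 9 libraries. The 2 triplets with almost no stromal transcripts can be set side by side, insulin-stimulated in normal medium against untreated in insulin-resistant medium, although they differ in both factors. TAT was at 14.1 to 15.8 against 3.68 to 5.56 CPM, and PPARGC1A at 8.91 to 13.0 against 4.6 to 5.28 CPM. SLC37A4 was at 28.2 to 33.5 against 39.6 to 45.0 CPM. G6PC1 was low in both, at 0.0928 to 0.225 and 0.146 to 0.474 CPM, under every untreated library in normal medium.

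The steps around these enzymes moved by gene. Their counts stand beside those of all genes. With all libraries 24.9% were higher and 10.2% lower for insulin in normal medium. The shares were 13.3% and 8.62% for the medium in untreated cells, and 12.0% and 26.3% in stimulated cells. Without the 6 libraries 2802 genes were higher and 3294 lower of 18230 for insulin in normal medium. For the medium it was 1948 and 2918 in untreated cells, and 3236 and 3320 in stimulated cells. Of 9 genes of the reversible steps shared with glycolysis, 1 was higher and 0 lower in stimulated cells in insulin-resistant medium by edgeR, the mutase PGAM1 (0.42 ± 0.14; edgeR adjusted p = 0.0159). The list median was 0.12 there, and PGAM1 was at 0.26 without the 6 libraries. Of the genes by which carbon enters, 15 of 17 were tested, and 6 rose and 0 fell with insulin in normal medium (median 0.11). Among them were GOT1, the cytosolic aspartate aminotransferase (1.19 ± 0.12), GPD1, a glycerol-3-phosphate dehydrogenase (0.98 ± 0.18), and the glycerol kinase GK (0.78 ± 0.16). Without the 6 libraries GOT1, GPD1 and GK were at 0.84, 0.52 and 0.37 and still passed. In untreated cells the medium raised 3 and lowered 0, namely GPD1 (0.77), the carrier SLC25A10 (0.65) and GOT1 (0.33). Leaving out the 6 libraries, 2 were higher and 3 lower, with GPD1 at 0.33 and SLC25A10 at 0.29. GOT1 was no longer called (0.18; edgeR adjusted p = 0.164). In stimulated cells it lowered 8 and raised 0 (median -0.23), among them the alanine aminotransferase GPT (-1.29), GOT1 (-1.10) and GK (-0.95). Without the 6 libraries that last count was 5 lower and 1 higher, and for insulin in normal medium it was 3 higher and 1 lower. GPT was then at -0.79, GOT1 at -0.76 and GK at -0.5 for the medium in stimulated cells.

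A list of glycogen enzymes with the glucose carrier SLC2A2 (GLUT2) had 11 of 12 genes tested. With insulin in normal medium 3 rose and 2 fell (median 0.10). Among them the phosphorylase gene PYGB was at 0.79 ± 0.09 and the phosphorylase kinase subunit PHKG2 at 0.35 ± 0.06. SLC2A2 was at -1.50 ± 0.18 (edgeR adjusted p = 7.8e-08). Another phosphorylase gene, PYGL, went the other way from PYGB, at -0.32, and was called. In the other 30 libraries 3 rose and 3 fell, with PYGB at 0.53, PHKG2 at 0.16 and SLC2A2 at -1.97. SLC2A2 went from 39.1 ± 3.49 to 13.9 ± 5.05 CPM (SD, n = 9), and was at 13.1 ± 5.08 and 9.14 ± 0.992 CPM in untreated and stimulated cells in insulin-resistant medium. In untreated cells the medium raised 3 and lowered 1 of the list (median 0.14), with the lysosomal glucosidase GAA at 0.77, PYGB at 0.47 and SLC2A2 at -1.59 ± 0.18 (edgeR adjusted p = 5.15e-08). GAA, PYGB and SLC2A2 were at 0.58, 0.35 and -2.06 without the 6 libraries. In stimulated cells 3 were lower and 0 higher (median 0.01), with PYGB at -0.49, PHKG2 at -0.29 and SLC2A2 at -0.65. Without the 6 libraries that count was 1 lower and 4 higher, with PYGB at -0.25. PHKG2 (-0.1; edgeR adjusted p = 0.198) and SLC2A2 (-0.12; edgeR adjusted p = 0.311) were then no longer called.

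Of 21 regulators of the programme 20 were tested. With insulin in normal medium 8 rose and 2 fell (median 0.22), among them the liver transcription factor CEBPB (1.31 ± 0.13), the AKT-binding pseudokinase TRIB3 (1.33 ± 0.14) and the nuclear receptor ESRRA (0.63 ± 0.09). Without the 6 libraries 5 rose and 7 fell, with CEBPB at 0.96, TRIB3 at 0.92 and ESRRA at 0.38. In untreated cells the medium raised 4 and lowered 3 (median -0.01), or 2 and 8 without the 6 libraries. KLF15, a factor of amino acid catabolism and gluconeogenesis, fell from 8.21 ± 1.96 to 1.89 ± 0.559 CPM (-2.11 ± 0.19; edgeR adjusted p = 1.53e-10). The deacetylase SIRT1 fell by 0.51 on the log2 scale and NR0B2, the repressor SHP, rose by 0.90. Without the 6 libraries KLF15 was at -2.47, SIRT1 at -0.53 and NR0B2 at 0.57. In stimulated cells 13 were lower and 2 higher (median -0.59), or 10 and 2 without the 6 libraries. KLF15 was at -2.66 ± 0.20 there (edgeR adjusted p = 6.46e-12) and at -2.15 without the 6. CEBPB was at -1.52 and SIRT1 at -0.64, or -1.17 and -0.49 without the 6. HNF4A and FOXA2 of this list are also among the hepatocyte markers. In the difference of insulin responses TRIB3 was at -1.72 and CEBPB at -1.60, and both passed, as they did without the 6 libraries (-1.13 and -1.11). The insulin receptor INSR was at 63.9 ± 5.36 and 57.2 ± 11.5 CPM in normal and at 48.8 ± 11.0 and 39.6 ± 2.62 CPM in insulin-resistant medium, untreated and stimulated. The medium lowered it in untreated cells (-0.39 ± 0.11; edgeR adjusted p = 0.0083) and in stimulated cells (-0.56 ± 0.12; edgeR adjusted p = 0.000231). In the 30 libraries the INSR means were 63.9 and 50.5 CPM in normal and 42.2 and 39.6 CPM in insulin-resistant medium, in the same order.

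**Figure D4:**
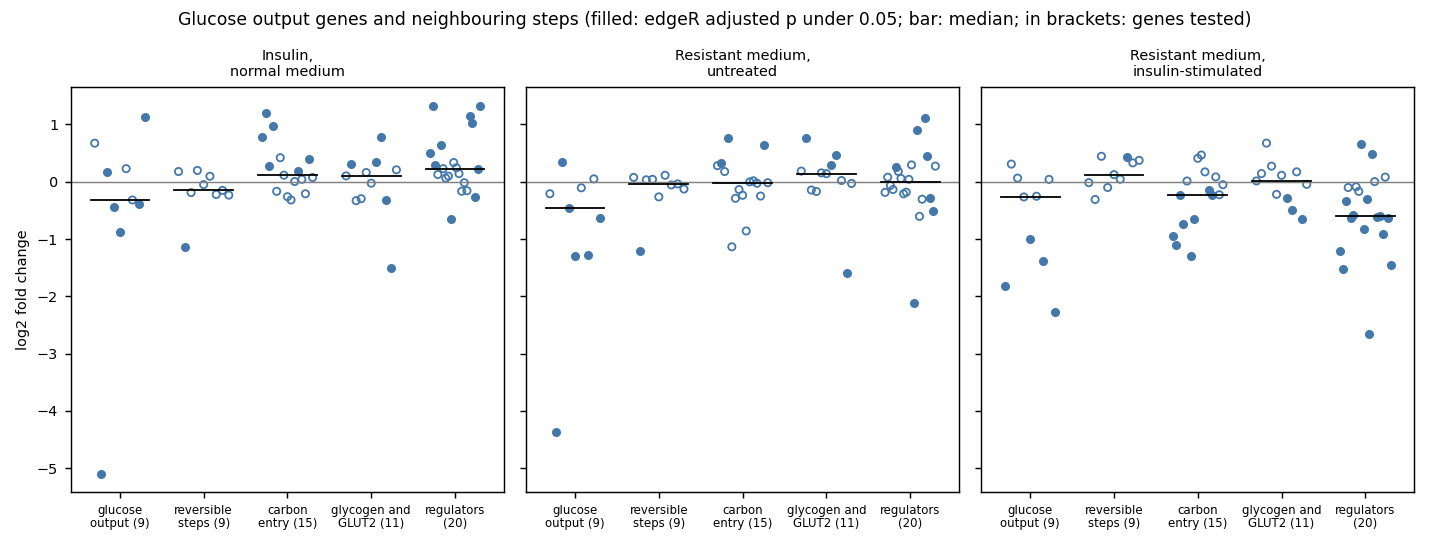
Log2 fold changes of the 9 glucose output genes and of 4 lists of neighbouring steps in 3 comparisons, 1 point per gene, filled where called, with bars for list medians. The points of G6PC1 lie at -5.09 with insulin in normal medium and at -4.37 with the insulin-resistant medium in untreated cells, below every other point of those panels.

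The direction balance of all calls moved with the scaling. Of called genes, 70.9%, 60.6%, 31.3% and 20.9% were higher for insulin in normal medium, the medium in untreated cells, the medium in stimulated cells and the difference of responses. With such averaged TMM factors these shares were 58.2%, 57.3%, 43.2% and 35.5%. With DESeq2 they were 56.0%, 55.7%, 47.4% and 40.8%. With hepatocyte scaling, which put the median of all genes at 0.14, 0.24, 0.49 and 0.24, they were 74.8%, 90.9%, 91.6% and 47.2%. The genes called among the 9 with all libraries kept their direction under these 3 scalings, except G6PC3 in the difference of responses, which was at 0.05 with hepatocyte scaling.

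The genes whose pattern was most like that of G6PC1 were ranked by the root mean square difference of centred log2(CPM + 0.1) over the 36 libraries, among 15654 genes with at least 0.5 CPM in a group. The death ligand TNFSF10 was the closest at 0.73. ANGPTL1 (0.93), ATP2B2 (0.96) and FST, the activin-binding follistatin (0.97), were also among the closest 5. TNFSF10 was at 7.47 ± 1.24 CPM in untreated cells in normal medium, 0.633 ± 0.265 CPM with insulin, and 1.57 ± 0.579 and 1.14 ± 0.192 CPM in insulin-resistant medium without and with it. ANGPTL1 was at 2.17 ± 0.256, 0.247 ± 0.139, 0.428 ± 0.168 and 0.5 ± 0.144 CPM in the same order. Of the other 8 glucose output genes PCK1 was the nearest, at 1.30 and place 65, with PPARGC1A at 1.46 and PC at 1.55. These are descriptions over libraries that share their groups, and carry no test.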

How the data were processed

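RNA-seq was done on 36 libraries. Per the labels' protocols, RNA was column-purified with DNase treatment, poly-A selected and made into strand-specific libraries. STAR, Salmon and build GRCh37 are named per the submitters' processing notes, with versions and settings not given in the sources used here. The authors deposited expected counts per Ensembl gene, without scaling, of which 10.4% were more than 0.0015 from a whole number, and these were rounded. Samples were grouped by title, and the labels call the 9 libraries of a group biological replicates.

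All libraries entered 1 model with group and batch date (edgeR 4.0.16 in R 4.3.3, TMM scaling, filterByExpr, quasi-likelihood F-test with robust dispersions). Benjamini-Hochberg adjustment ran over 17983 genes, with a threshold of 0.05. Standard errors are of log2 fold changes. Symbols came from a GRCh38 annotation and matched 51994 genes (90.0%). Members and lists were chosen with earlier results of these data known. Named besides the 9 genes are up to 3 called genes per list and comparison with the smallest adjusted p, the 5 genes most like G6PC1, and COL1A1, IGF1R and INSR. Not every gene this rule names is reported here, and PYGL is named in addition. Alternatives were DESeq2 1.42.0, no low-count filter, other scalings, no batch term, a replicate block, fits of the groups compared, within-batch fits, summed triplets, and leaving out each library or the 6 with COL1A1 below 10 CPM. Hepatocyte scaling without those 6 was added after seeing the data. No 2 replicates agreed within sampling noise.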

Additional observations from a re-analysis of the deposited data

Results flagged for a closer look

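PCK1 in insulin-stimulated cells in insulin-resistant medium had 1 library apart from the rest, replicate 9 at 2.95 CPM, beside 1.61 CPM as the lowest and 1.83 CPM as the median of the group. It was the only such case among 36 sets of 9 libraries (9 genes in 4 groups), and chance alone marks about 1 in 20. The insulin response differed between the media, by a test of the difference, for G6PC1 (4.68), TAT (-1.65) and G6PC3 (-0.28, resistant minus normal, log2 scale), 3 of 9 genes tested in this way. The G6PC3 difference was not called in 28 of 36 fits that each left out 1 library, nor with DESeq2 (adjusted p = 0.0769), and was 0.01 without the 6 libraries. That of TAT was -0.66 without them.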

How the results depend on the processing

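The calls for G6PC1 with insulin in normal medium and with the insulin-resistant medium in untreated cells held in every fit run, at -6.37 to -4.59 and -4.89 to -4.02 outside the fits that leave out 1 library. Libraries resemble each other in triplets, and with triplets summed fewer genes were called. That fit has 1 sample per triplet and no batch term, so it cannot tell likeness within triplets from fewer samples or the changed model. In it 1, 1, 2 and 1 of the 9 genes were called, and 711, 485, 944 and 5 of all genes. These are for insulin in normal medium, the medium in untreated cells, the medium in stimulated cells and the difference of responses. Counts per batch were 3, 2, 1 and 0 of the 9 (950, 611, 1105 and 4 genes) within 22 April and 1, 1, 4 and 1 (866, 375, 2890 and 636 genes) within 11 April, while within 24 May 5 of the 9 were called for insulin in normal medium and 5 for the medium in untreated cells (6058 and 1808 genes). The cause was not tested. G6PC1 and FBP1 had only 1 to 17 and 1 to 100 counts per library outside untreated cells in normal medium. The difference of responses could not be fitted within 24 May, and G6PC1 and FBP1 did not pass the low-count filter when only the stimulated groups were fitted.

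For insulin in insulin-resistant medium, where the count was 0, 2 of the 9 and 2063 genes passed with no batch term and 5 and 4012 with only the groups compared. DESeq2 called 137 genes. Leaving out 1 library gave 0 to 2 of the 9 and 0 to 2008 genes there, with the calls made without replicate 7 or 9 of the untreated group. Over the other comparisons it gave 5 to 6, 5 to 6, 4 to 5 and 2 to 3 of the 9, and 5135 to 6465, 3366 to 4250, 5745 to 7390 and 3990 to 6024 genes. G6PC3 lost its call in 28 of 36 such fits for insulin in normal medium and in 28 for the difference of responses. Hepatocyte scaling called 7 of the 9 for the medium in stimulated cells (4 higher, where none was before, beside 6736 higher and 616 lower genes), and 5 of the 9 and 2055 genes for the difference of responses. Without the 6 libraries it called 8 and 7 of the 9, with 11631 genes for insulin in normal medium and 13465 for the medium in untreated cells. Without the 6 and with TMM, 6 of the 9 were called for the difference of responses.

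Signs turned as follows, for values that mostly did not pass with all libraries. Without the 6, for insulin in insulin-resistant medium, G6PC1 was at 0.01, PCK2 at -0.24, PC at 0.01 and TAT at 0.02. PCK2 was at 0.11 and SLC37A4 at -0.25 for the medium in untreated cells, PC at 0.10 in stimulated cells and G6PC3 at -0.01 for insulin in normal medium. For the difference of responses PPARGC1A was at 0.79, SLC37A4 at 0.57 and G6PC3 at 0.01. With hepatocyte scaling the values for insulin in insulin-resistant medium were 0.03 (G6PC1), 0.18 (PC), 0.04 (PPARGC1A), 0.07 (SLC37A4) and 0.29 (G6PC3). PCK2 was at 0.24 and 0.25 for the medium in untreated and stimulated cells, PC at 0.35 in stimulated cells, and PCK2, PPARGC1A, SLC37A4 and G6PC3 at 0.02, 0.40, 0.40 and 0.05 for the difference of responses. With that scaling and without the 6, the values for insulin in insulin-resistant medium were 0.06 (G6PC1), -0.23 (PCK2), 0.05 (PC), 0.02 (PPARGC1A), 0.08 (TAT) and 0.04 (G6PC3). PCK2 and FBP1 were at 0.66 and 0.14 for the medium in untreated cells, PC at 0.27 in stimulated cells, and PPARGC1A and SLC37A4 at 0.42 and 0.20 for the difference of responses. Within 22 April PCK2 and G6PC3 were at -0.08 and -0.04 for insulin in normal medium, PCK2 at -0.15 in insulin-resistant medium, and PPARGC1A and SLC37A4 at 0.10 and 0.05 for the difference. Within 11 April FBP1 was at 0.38 for insulin in insulin-resistant medium, and PCK2 and PC at 0.32 and -0.03 for the difference. Within 24 May FBP1 was at -2.08 for insulin in normal medium, and PCK2, FBP1 and SLC37A4 were at 0.14, 0.50 and -0.25 for the medium in untreated cells. FBP1 was at 0.14 with only the groups compared, for insulin in insulin-resistant medium. For the difference of responses SLC37A4 was at 0.08 with DESeq2, 0.13 without the low-count filter, 0.06 with averaged TMM factors and 0.03 with triplets summed, PPARGC1A at 0.03 without the filter and PCK2 at 0.05 with triplets summed. Leaving out 1 library turned the sign in 28 of 36 fits for SLC37A4 in the difference of responses (-0.05 to 0.19). There the sign also turned in 10 fits for PPARGC1A (-0.19 to 0.15) and 7 for PCK2 (-0.17 to 0.05). For the medium in untreated cells it turned in 3 fits for SLC37A4 (-0.05 to 0.09). With insulin it turned in 2 fits for PCK2 in insulin-resistant medium (-0.04 to 0.16). In normal medium it turned in 1 fit for FBP1 (-0.13 to 0.83).

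A replicate block was fitted although the numbers did not pair the libraries: over 54 same-numbered pairs the correlation of deviations was -0.82 to 0.738, with 22 over 0.1, and 15 of 108 comparisons matched best with their own number. With the block 7, 3, 6, 3 and 3 of the 9 genes and 6370, 2674, 4182, 7907 and 6495 genes were called in the 5 comparisons, and SLC37A4 for the medium in stimulated cells was at -0.03.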
